A study of Mus musculus with 2 samples.

Results

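The cells described here are the alpha-beta T cells of mouse skin, the lymphocytes that carry a receptor of alpha and beta chains, and 63 of the 8367 barcodes of the count matrix met the rule that selects them. A barcode was taken as a T cell when it had at least 200 genes and at most 20% mitochondrial UMIs (unique molecular identifiers, 1 for each captured RNA molecule), at least 3 UMIs over Trac, Trbc2, Cd3e, Cd3d and Cd3g, and at least 1 UMI of Trac. It also had to hold fewer than 5 UMIs of the gamma-delta receptor genes Trdc and Tcrg-C1 together, and fewer than 5 of the natural killer (NK) genes Ncr1, Klrb1c, Klrd1 and Nkg7 together. The last limits were at most 2 UMIs of C1qa, C1qb and C1qc together, at most 5 of Dcn, and at most 5 of Krt5 and Krt14 together. All of these genes chose the members, so their values are description only.

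The skin came from C57BL/6 mice 8 weeks old, either control animals or animals that had been given an antibody against the neutrophil protein Ly6G (clone 1A8) for 2 consecutive days at steady state. Skin was digested with Liberase and DNase, the cells of both groups were marked with hashtag antibodies, and all of them were pooled into 1 RNA library and sequenced as single cells in droplets. The matrix names no condition for a barcode, so control and depleted skin were not compared, and every value below describes the pool. The hashtag library was not used here. With 1 library there is no replicate, so no p-value is given. Intervals in parentheses are exact 95% intervals, Poisson for UMIs, conditional binomial for a ratio and Clopper-Pearson for a share, and they cover counting error only.

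Alpha-beta T cells recognise peptides held on MHC molecules. Their receptor signals through the CD3 chains and a chain of kinases and adaptors, the coreceptors CD4 and CD8 set which class of MHC is read, and CD28 and ICOS lend a second signal. In skin they include resident memory cells, which stay in the tissue through CD69, CD103 (Itgae) and CXCR6. They also include regulatory cells that depend on the transcription factor FOXP3, and helper cells that make type 1, type 2 or type 17 cytokines.

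T cells chosen by this rule were rare in the pool. They were 0.753% of all barcodes (0.579 to 0.962) and 2.52% (1.94 to 3.21) of the 2503 barcodes that were T cells or passed the filters with at least 1 UMI of Ptprc, the gene of the leukocyte protein CD45. The labels name no sort or gate, so a share depends on which cells came free in the digestion, and it depends on the rule as well. Ptprc is not in the rule, and 59 of the 63 T cells held it. UMIs per T cell ran from 1481 to 22404 (median 4052), the median number of genes was 1630, and the T cells held 322714 UMIs in all. Each barcode of the matrix was distinct, and 0 of the 63 were called as doublets, against 188 of the 2440 other Ptprc-positive barcodes (7.70%), the set with which the T cells are compared throughout. The rule's limits on C1q, Dcn, keratin, gamma-delta and NK genes did not apply to these others. The doublet calls therefore do not measure how pure the T cells are. Those others held 24068450 UMIs, with a median of 8413.5 UMIs per barcode. They are a mixture: 36.4% exceeded 2 C1q UMIs, the limit that bars macrophages from the T cells, 10.2% exceeded 5 Dcn UMIs, and 16.6% held a single Ptprc UMI. They also take in any Ptprc-positive barcodes among the 67 that failed the Trac condition alone and the 9 that failed the NK limit alone.

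The genes that chose the members ranged widely. The 5 receptor genes summed to 4 to 56 UMIs per T cell, with a median of 12. Just inside the limit of 3 there were 0 T cells, and 1 barcode that passed the other conditions lay just outside it at 2. Trac (chromosome 14, 54220521 to 54224206, plus strand, on mm10) had 1 to 11 UMIs, with 16 T cells at 1, while 67 barcodes that passed everything else held none. At the NK limit 2 T cells had 4 UMIs and 1 barcode just outside had 5, and at the C1q limit 3 T cells had 2 UMIs and 0 barcodes had 3.

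Markers that the rule did not use were counted apart from those it limits. Trbc1, the other constant gene of the beta chain, had 197 UMIs in 35 T cells, at 610 CPM against 26.4 in the comparison set. Of 4 gamma-delta markers left 2 were detected, with 6 UMIs in 2 T cells, and Trdv4 and Cd163l1 were at 0. Of 4 NK markers left 2 were detected, with 1 UMI each, and Klra4 and Klre1 were at 0. Markers of group 2 innate lymphoid cells, which helper T cells of type 2 also express in part, were abundant: 8 of 9 were detected, with 757 UMIs in 42 T cells, at 2346 CPM against 258, and 21 T cells held 3 or more of them. B and plasma cell markers had 28 UMIs in 19 T cells, at 86.8 CPM against 558, of which Ighm, the heavy chain of IgM, had 24 in 17 T cells, while Cd79a, Ms4a1 and Jchain were at 0. All 6 melanocyte and Schwann cell genes and all 4 haemoglobin genes were at 0. Outside the rule fibroblast markers summed to 21 UMIs, keratinocyte markers to 10 and neutrophil markers to 3, and Ly6g, the target of the antibody, had 0.

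Myeloid RNA was also present. In 8 of the 63 T cells 3 or more markers of the macrophage, monocyte or dendritic list were present. Those 8 held 28.2% of all T cell UMIs, with a median of 11003 UMIs each, and 5 of them were among the 10 deepest. Lyz2, the lysozyme gene of macrophages, had 1 to 102 UMIs in the 8 and 0 or 1 in the other 55. Cd74, a chaperone of MHC class II molecules, summed to 851 UMIs in the 8 and 74 in the 55. The lowest of the 8 held 1 UMI of Lyz2 and 3 of Cd74, within the range of the other 55. H2-Ab1, a class II gene of the dendritic list, summed to 382 and 15. Csf1r, a macrophage receptor, had 1 UMI in each of these groups. Over all 63 T cells each of the 8 macrophage, 5 monocyte and 8 dendritic markers was detected, with sums per T cell of 0 to 112, 0 to 25 and 0 to 127 UMIs. The macrophage list holds the 3 C1q genes that the rule limits, and the 5 others had 561 UMIs in 15 T cells. At least 3 macrophage markers were present in 8 T cells, and in 5 with the C1q genes left out. The monocyte list holds Ccr2, which was found in 31 T cells. What this RNA adds to the results below was not tested beyond the values given without these 8 T cells.

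**Figure D1:**
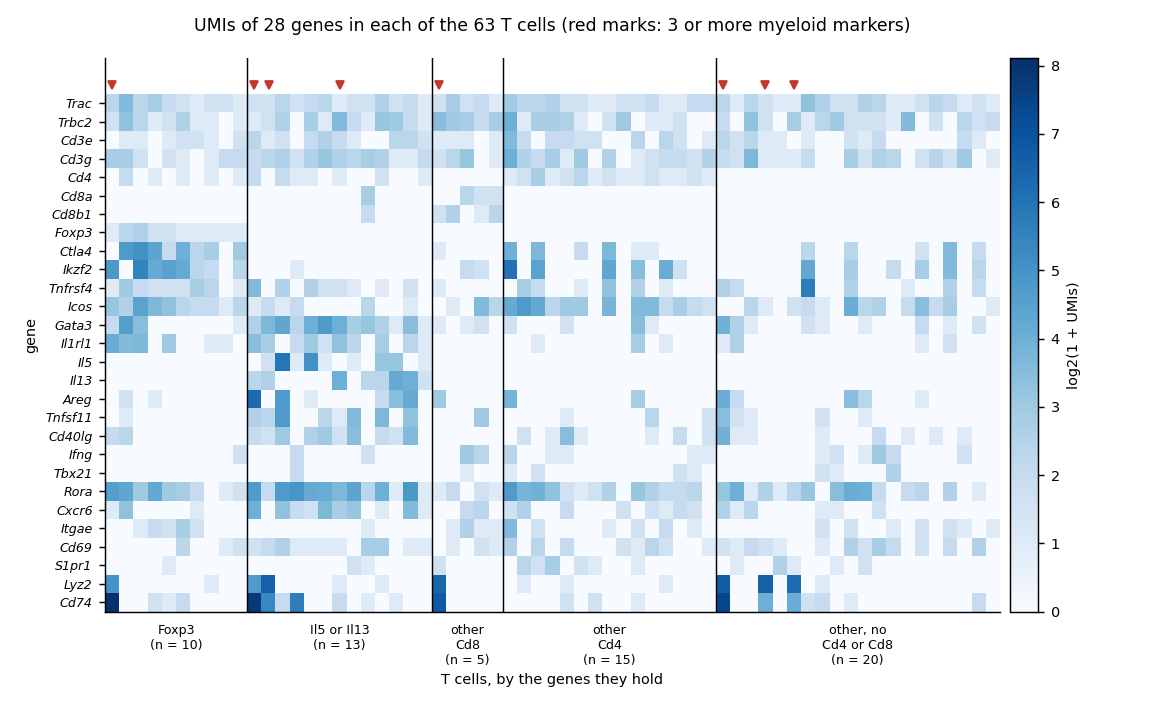
Each column is 1 of the 63 T cells and each row a gene; colour is log2(1 + UMIs), columns are grouped by whether a T cell held Foxp3, Il5 or Il13, or neither, with or without Cd8 or Cd4, and red marks show the 8 T cells with 3 or more myeloid markers. The 10 T cells with Foxp3 and the 13 with Il5 or Il13 share no cell, Ctla4 is at 0 in all 13, and the unmarked columns hold 6 UMIs of Lyz2 in all.

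The comparison of T cells with the other Ptprc-positive barcodes asked which genes, beyond those of the rule, were higher or lower. A gene was measured when both sets together gave at least 50 UMIs, which 12311 genes did. Levels are in CPM (the gene's share of a set's UMIs, scaled to 1000000). A gene was called when its level differed at least 2-fold with 0.5 UMIs added to each count. Of all genes measured 14.0% were called higher and 25.7% lower, and each count below is to be read against these shares. Over the genes outside the rule the median log2 ratio was -0.14, with 0.5 UMIs added to each count, and 0 when genes with no UMI in the T cells stood at their bound of 3 counts. The share called lower depends on this choice. Of these 12293 genes 3149 were lower with 0.5 UMIs added and 2236 at the bound.

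Genes of T cell receptor signalling were higher almost throughout. All 20 were measured, and 19 were higher and 0 lower, with a median log2 ratio of 3.56. Cd5, a brake on receptor signals, was at 205 CPM against 1.75, a ratio of 117 (78.4 to 177). It was present in 29 T cells with 1 to 6 UMIs, and in 0.198% of fibroblast-type barcodes (over 5 Dcn UMIs and no Ptprc), whose median depth of 11539.5 UMIs was above that of the T cells. Cd6, a related surface receptor, was at 158 CPM, 90.6-fold above the others (59.0 to 140). Ubash3a, which dampens receptor signalling, was 53.3-fold higher (30.6 to 91.6). Among the adaptors below the receptor, Grap2 and Fyb were higher. Grap2, an adaptor that joins the phosphorylated scaffold LAT to SLP-76, had 1032 CPM, 16.6-fold higher (14.7 to 18.8). Fyb, an adaptor between the receptor and integrins, had 691 CPM, 3.91-fold higher (3.40 to 4.47).

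Among 19 measured T cell transcription factors 12 were higher and 2 lower, with a median log2 ratio of 2.03. Rora, a nuclear receptor of type 17 and type 2 lymphocytes, was at 1494 CPM against 142, a ratio of 10.5 (9.55 to 11.6). It was in 54 T cells, with 0 to 29 UMIs and a median of 4. Ets1, needed for T cell survival, was in 58 T cells and 14.9-fold higher (13.1 to 16.9). Runx1, which acts through T cell development, was at 1044 CPM against 431, with a log2 ratio of 0.86 when every barcode weighed the same. Lef1, a partner of beta-catenin typical of naive cells, was 25.7-fold higher (18.8 to 34.7), but it came from 12 T cells, and 3 of them held 36 of its 60 UMIs. Zbtb16, the factor of invariant NKT cells, had 5 UMIs in 5 T cells and a ratio of 0.362 (0.117 to 0.848). Of the 9 measured genes of the innate-like list 5 were higher, among them Slamf1, a self-binding signalling receptor, at 183 CPM and 113-fold (74.0 to 174), and 3 were lower.

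Coreceptors split the T cells. Cd4 (chromosome 6, 124864692 to 124888221, minus strand) was at 146 CPM, 57.5-fold above the others (38.4 to 85.5). At least 1 UMI of Cd4 was found in 27 T cells, 42.9% (30.5 to 56.0), and 16 of the 27 held exactly 1. Cd8a or Cd8b1 was found in 6 T cells, 9.52% (3.58 to 19.6), all different from the 27. The 30 T cells left, 47.6%, held neither. Cd8a and Cd8b1 fell short of the 50 UMIs that make a gene measured, with 14 and 15 UMIs. Cd4 was found in 1.30% of fibroblast-type and 0.606% of keratinocyte-type barcodes (over 5 Krt5 and Krt14 UMIs and no Ptprc), with median depths of 11539.5 and 11003 UMIs. The group with neither grew as depth was lowered. With each T cell thinned to 1000 UMIs the share with Cd4 was 14.3% (6.75 to 25.4), with Cd8 3.17% and with neither 82.5%, against 0.199% of fibroblast-type barcodes with Cd4 at the same depth. The median T cell with Cd4 held 4080 UMIs and the median with neither 3846.

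Regulatory T cell genes were 9 higher and 1 lower of 12 measured, with a median log2 ratio of 3.17. Ctla4 (chromosome 1, 60887000 to 60915832, plus strand), which removes costimulatory ligands from antigen-presenting cells, was at 561 CPM against 3.61, a ratio of 155 (120 to 203). It came from 20 T cells, with 1 to 32 UMIs, and 43 held none. Ikzf2, the gene of the factor Helios, was at 1004 CPM and 26.6-fold higher (23.3 to 30.2), from 23 T cells. Tnfrsf4, the costimulatory receptor OX40, was 160-fold higher (121 to 215), in 31 T cells of which 1 held 33.1% of the UMIs. Icos was more general: 45 T cells held it, at 886 CPM against 10.8, a ratio of 82.0 (69.1 to 97.4).

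Foxp3 (chromosome X, 7573644 to 7595245, plus strand) was found in 10 T cells, 15.9% (7.88 to 27.3), with 1 to 5 UMIs each and 19 in all. The share of fibroblast-type barcodes with Foxp3 was 0.0567% and that of keratinocyte-type barcodes 0%. After thinning to 1000 UMIs Foxp3 was left in 6 T cells, 9.52%. Of the 10 T cells 8 held Ctla4, 8 held Ikzf2, 5 held Cd4 and 0 held Cd8. Ctla4 was at 2138 CPM in the T cells with Foxp3 and 252 CPM in the 53 without, a ratio of 8.49 (6.23 to 11.6). Ikzf2 stood at 2612 against 689 CPM, and Tox, a chromatin factor of activated T cells, at 2290 against 552. Il10, a suppressive cytokine, was 6.38-fold higher (3.14 to 13.2), though 2 T cells with Foxp3 gave it. Areg, Tnfsf11 and Cd40lg were lower in the T cells with Foxp3. Areg, an epidermal growth factor ligand, was at 56.8 against 711 CPM, and Tnfsf11, the ligand RANKL, at 18.9 against 378 CPM. One of the 10 T cells with Foxp3 was the deepest of all, with 22404 UMIs, and it carried myeloid RNA. Without the 8 T cells of that kind the Ctla4 ratio was 11.2 (8.17 to 15.3), that of Ikzf2 3.95 and that of Tox 5.42, while Areg was at 98.6 against 467 CPM.

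Type 2 genes were 7 higher and 0 lower of 8 measured, with a median log2 ratio of 3.17. Type 2 immunity is the arm that acts against worms and in allergy, led by the transcription factor GATA3 and the cytokines IL-4, IL-5 and IL-13. The genes Il5 and Il13 lie close together on chromosome 11 of mm10, Il5 at 53720794 to 53725106 on the plus strand and Il13 at 53631324 to 53634702 on the minus strand. Their promoters are shown because both cytokines were found with Gata3 in the same T cells. The sequences are the 120 bases before the start of each gene in the RefSeq promoter table of GRCm38.p6, the assembly behind mm10, at chr11:53720674-53720793 (plus strand) and chr11:53634703-53634822 (minus strand). Capitals mark a match to a GATA motif, searched on both strands as GATA with A or T before it and A or G after it, so that AGATAA counts as a match and so does CTATCT, which reads as such on the opposite strand.
Il5: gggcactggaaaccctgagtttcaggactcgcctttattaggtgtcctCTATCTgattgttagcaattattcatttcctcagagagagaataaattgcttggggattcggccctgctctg
Il13: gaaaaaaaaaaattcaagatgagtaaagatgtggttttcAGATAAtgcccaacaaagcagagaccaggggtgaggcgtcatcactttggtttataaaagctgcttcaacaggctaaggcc
The match in Il5 begins 72 bases before the start and the one in Il13 81 bases before it, and neither promoter held another in the 300 bases searched, 250 before and 50 after the start. Of all 32851 promoters of that length 29.8% held at least 1 such match, so a match is a description of the sequence and no sign of binding.

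Il5, the growth factor of eosinophils, had 114 UMIs or 353 CPM, 28.8-fold above the other Ptprc-positive barcodes (23 to 35.9). The 9 T cells that held it had 1 to 60 UMIs, with a median of 2, and 1 T cell held 52.6% of all. Il13, which acts on epithelium and fibroblasts, had 66 UMIs or 205 CPM, 23.4-fold higher (17.5 to 31.0), in 8 T cells with 2 to 17 UMIs. Together 13 T cells held Il5 or Il13, 20.6% (11.5 to 32.7), and 4 held both. Il5 was found in 0.0283% of fibroblast-type barcodes and Il13 in 0.085%. Il4, the cytokine that drives helper cells to type 2, had 8 UMIs in 1 T cell, which held neither Il5 nor Il13 and was 1 of the 8 with myeloid RNA, and Il9 had 0.

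Gata3 (chromosome 2, 9857078 to 9890034, minus strand) was found in 33 T cells at 660 CPM, 10.4-fold higher (9.0 to 12.1), and all 13 T cells with Il5 or Il13 were among the 33. In those 13 Gata3 stood at 1494 CPM, against 362 in the other 50, a ratio of 4.13 (3.12 to 5.49). Of the 13 none held Foxp3, none held Ctla4 and 1 held Ikzf2, although 7 held Cd4. Ctla4 was thus at least 21.6-fold lower, and Icos was at 153 against 1149 CPM, a ratio of 0.133 (0.0700 to 0.231). Itgae, the CD103 integrin chain that binds E-cadherin, was at 11.8 against 223 CPM, from 1 of the 13 and 22 of the 50. Higher in the 13 were Areg at 1552 against 265 CPM, Tnfsf11 at 847 against 130 CPM, and Bhlhe40, a factor of cytokine-making T cells, at 612 against 88.4 CPM. Furin, a protease that matures precursors, was in 12 of the 13, at 1011 against 168 CPM, and Cxcr6 in 10 of them, at 800 against 219 CPM. The 13 were deeper, with a median of 6262 against 3712 UMIs, and 3 of them were among the 8 with myeloid RNA. Without those 8 the ratios were 4.65 for Gata3 (3.37 to 6.44), 4.74 for Areg, 9.82 for Tnfsf11, 0.114 for Icos and 0.0627 for Itgae. Because the split is made on 2 cytokine genes, a T cell in which both were missed counts among the 50.

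Other products of the type 2 list came from few cells as well. Areg was at 604 CPM, 7.70-fold higher (6.61 to 8.93), from 16 T cells, of which 1 held 38.5% of the UMIs, and 6 of the 16 held Il5 or Il13. Without the 8 T cells with myeloid RNA, Areg was at 419 CPM, 5.33-fold higher (4.30 to 6.54). Csf2, the growth factor GM-CSF, was at 180 CPM from 10 T cells, 7 of them with Il5 or Il13. Il1rl1, the IL-33 receptor ST2, was at 363 CPM and 7.11-fold higher (5.83 to 8.60), from 23 T cells. Of the 10 with Foxp3 6 held Il1rl1, and of the 13 with Il5 or Il13 10 did.

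**Figure D2:**
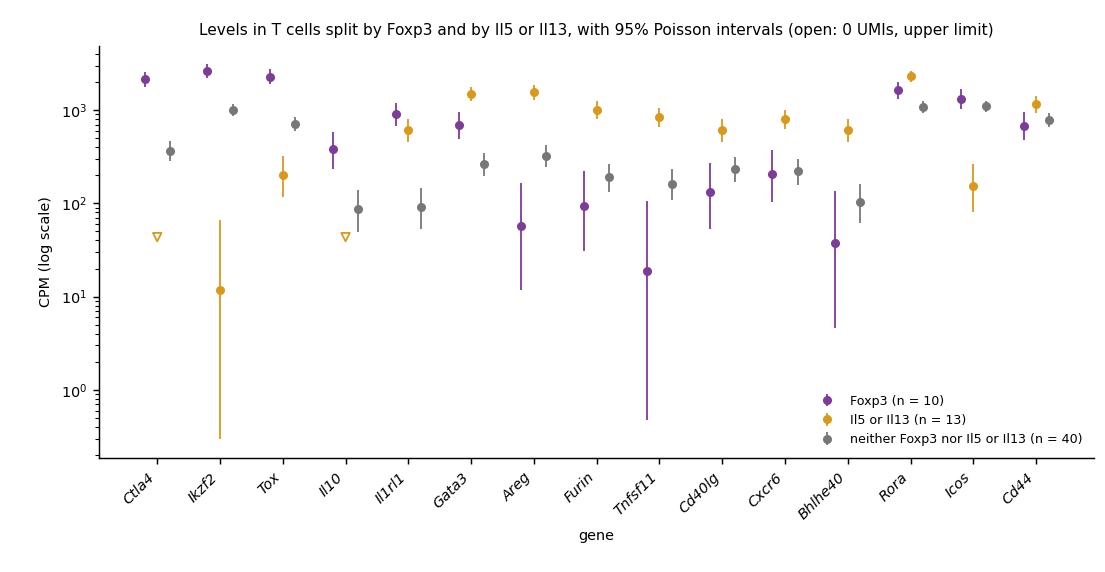
Levels of 15 genes in CPM on a log axis, with 95% Poisson intervals, in the 10 T cells with Foxp3, the 13 with Il5 or Il13 and the 40 with none of these; open triangles give the upper limit where there were 0 UMIs. Ctla4, Ikzf2 and Tox are highest with Foxp3, Gata3, Areg, Furin, Tnfsf11 and Bhlhe40 are highest with Il5 or Il13, and Ctla4 and Il10 are at 0 in the latter.

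Type 1 genes were 8 higher and 0 lower of 11 measured, with a median log2 ratio of 2.52. Ifng, the macrophage-activating cytokine, was at 130 CPM against 19.7, a ratio of 6.61 (4.7 to 9.07). It was found in 16 T cells, 25.4% (15.3 to 37.9), with 1 to 7 UMIs, and in 0.142% of fibroblast-type barcodes. Of these 16 T cells 7 held Tbx21, the factor of type 1 cells, which 9 T cells held in all, 7 held Cd4, 3 held Cd8, 2 held Il5 or Il13 and 1 held Foxp3. None of the 16 was among the 8 with myeloid RNA. Il2, the T cell growth factor, was 86.5-fold higher (58.2 to 129), from 13 T cells with 1 of them holding 53.4% of its 58 UMIs. Without the 8 T cells with myeloid RNA, Il2 had 27 UMIs and was 56.1-fold higher (33.8 to 91.3). Tnf was in 16 T cells, at 112 CPM and 2.09-fold higher (1.46 to 2.92), with a log2 ratio of 0.99 when called doublets were left out of the comparison.

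No type 17 product was found. Il17a, Il17f and Il22 had 0 UMIs in the 63 T cells, where 0 allows up to 4.76% of T cells with a UMI and up to 9.30 CPM. Of the type 17 list 4 genes were measured and 1 was higher, Rora. Ccr6, a receptor of type 17 and other memory cells, had 7 UMIs in 5 T cells.

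Cytotoxic genes are shaped by the rule, since it limits Nkg7 and Klrd1. Of 11 measured 2 were higher and 5 lower, with a median log2 ratio of -0.48, or 0 with absent genes at their bound. Without the NK limit 7 were higher and 1 was lower. Ctsw, a protease of cytotoxic lymphocytes, was at 49.6 CPM and 1.75-fold (0.997 to 2.87), Klrk1, the receptor NKG2D, at 62.0 CPM and 1.05-fold (0.637 to 1.62), with a log2 ratio of -2.73 when no C1q, Dcn or keratin UMIs were allowed. Cst7, an inhibitor of granule proteases, was 3.43-fold higher (1.75 to 6.09), with a log2 ratio of 0.81 when the comparison set was held to the C1q, Dcn and keratin limits. Ccl5 had 57 UMIs, of which 54.4% lay in 1 T cell. Its log2 ratio was -0.61, and 1.92 without the NK limit.

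Tissue residency genes were 9 higher and 2 lower of 13 measured, with a median log2 ratio of 1.53, or 1.47 at the bound. With the comparison set held to the C1q, Dcn and keratin limits 7 were higher and 2 lower, with a median of 1.06. Cd69, which holds cells in tissue by pulling S1PR1 from the surface, was in 38 T cells at 301 CPM, 11.8-fold higher (9.40 to 14.6). Cxcr6 was in 29 T cells at 372 CPM, 15.7-fold higher (12.8 to 19.1), and Itgae in 23 at 167 CPM, 14.2-fold higher (10.4 to 19.1). Of the 6 T cells with Cd8 5 held Itgae, and of the 27 with Cd4 8 did. Rgs1 and Rgs2, which damp chemokine receptor signals, were at 527 and 852 CPM, 3.13-fold and 2.96-fold higher.

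Genes of naive and recirculating cells were 7 higher and 1 lower of 12, with a median log2 ratio of 1.76. With the comparison set held to the C1q, Dcn and keratin limits 5 were higher and 0 lower of 11, with a median of 0.68. S1pr1, the receptor for leaving tissue, was in 15 T cells at 99.2 CPM, 14.5-fold higher (9.58 to 21.2), and 6 of these 15 also held Cd69. Il7r, the receptor of a survival cytokine, was in 39 T cells at 307 CPM, 7.10-fold higher. Klf2, the factor that switches S1pr1 on, was at 208 CPM against 301, a ratio of 0.689 (0.534 to 0.877), and its log2 ratio was -0.53, or -1.64 without the 10 deepest T cells. Sphingosine and migration regulators were 8 higher and 0 lower of 14, with a median of 1.42. Gimap3, a GTPase of lymphocyte survival, was 11.2-fold higher, and Coro1a, an actin regulator, stood at 710 against 602 CPM.

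Chemokine receptors and adhesion genes were 7 higher and 2 lower of 17, with a median of 0.53, or 0.30 at the bound. Ccr4, a receptor for CCL17 and CCL22, was at 86.8 CPM and 29.0-fold higher (18.0 to 45.5), from 16 T cells. Ccr10, the receptor for keratinocyte CCL27, had 22 UMIs in 11 T cells, 91.2-fold above the others (46.7 to 180), and 0 UMIs in the 13 T cells with Il5 or Il13. Cxcr3, a type 1 receptor, had 15 UMIs in 10 T cells. Ccr2, also a monocyte gene, was lower at 375 against 625 CPM, a ratio of 0.600 (0.498 to 0.718), which was 0.463 without the 8 T cells with myeloid RNA.

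All 13 measured genes of the tumour necrosis factor superfamily list were higher, with a median log2 ratio of 3.87. Cd40lg, the ligand through which T cells license dendritic cells and help B cells, was at 316 CPM against 2.74, a ratio of 115 (83.8 to 160), from 27 T cells. Tnfsf11 was at 319 CPM against 3.03, a ratio of 105 (77.2 to 144), from 18 T cells, 16 of which held Cd40lg. Ltb, a chain of a lymphotoxin that shapes lymphoid tissue, was more widely spread, in 40 T cells at 350 CPM, 18.8-fold higher (15.1 to 23.1). Cd27, a costimulatory receptor, was in 19 T cells, 14.5-fold higher, and in 0 of the 13 with Il5 or Il13.

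Receptors for cytokines were 11 higher and 2 lower of 19, with a median of 1.18, or 1.17 at the bound. Il21r was 14.8-fold higher (10.2 to 20.9), Il18r1 11.0-fold (7.94 to 15) and Il2ra, the CD25 chain of the IL-2 receptor, 10.03-fold (7.47 to 13.2). Il2ra was in 8 of the 10 T cells with Foxp3, at 303 against 152 CPM in the others. Checkpoint receptors were 7 higher and 3 lower of 11, with a median of 1.47, or 1.15 at the bound. With the comparison set held to the C1q, Dcn and keratin limits 4 were higher and 3 lower of 10, with a median of 0.76. Beyond Ctla4 and Icos, Pdcd1, the gene of PD-1, had 11 UMIs in 7 T cells.

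**Figure D3:**
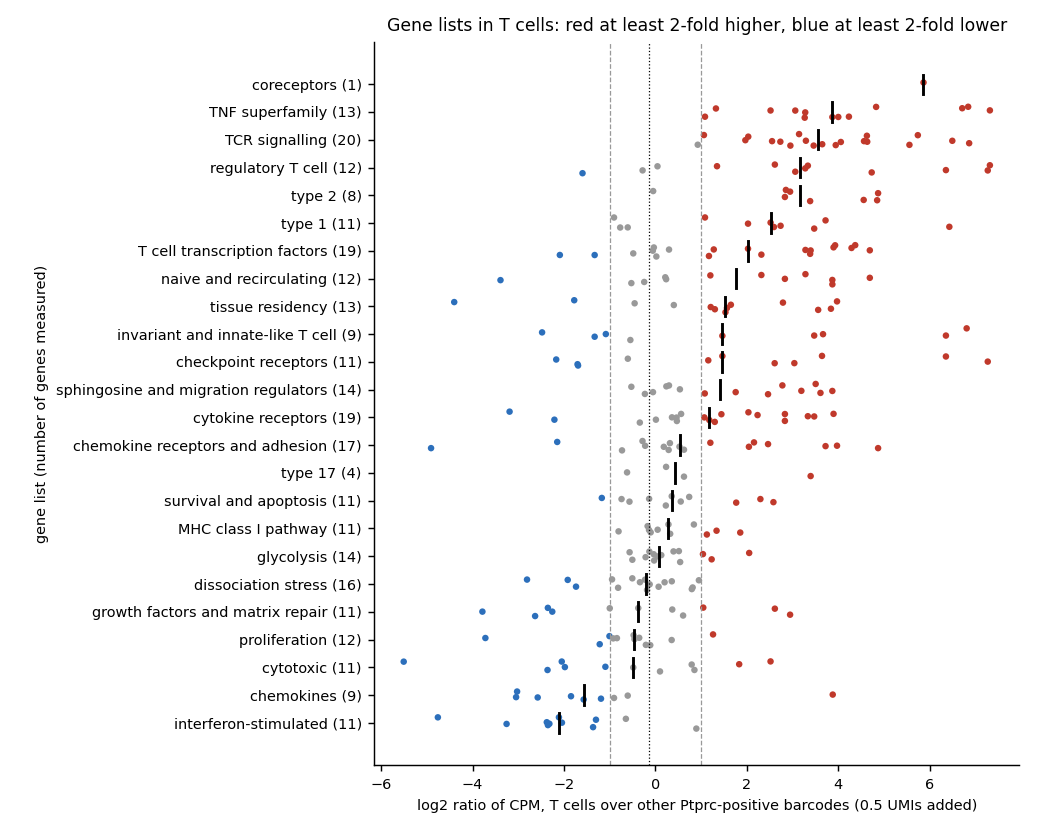
Each point is a measured gene of a list, placed by its log2 ratio of CPM, T cells over the other Ptprc-positive barcodes, with 0.5 UMIs added; red is at least 2-fold higher, blue at least 2-fold lower, black bars are medians and the dotted line is the median of all genes measured. Of the T cell receptor signalling genes 19 of 20 and of the tumour necrosis factor superfamily 13 of 13 lie to the right, while 9 of 11 interferon-stimulated genes lie to the left.

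Some lists were lower. Interferon-stimulated genes were 0 higher and 9 lower of 11, with a median log2 ratio of -2.11, or -2.17 at the bound. With the comparison set held to the C1q, Dcn and keratin limits 1 was higher and 7 lower, with a median of -1.47. Ifi27l2a was at 1162 against 2994 CPM, a ratio of 0.388 (0.35 to 0.43), and 0.513 when the comparison set was held to the same C1q, Dcn and keratin limits as the T cells. Chemokines were 1 higher and 6 lower of 9, with a median of -1.57, or -1.19 at the bound. Ccl1, a ligand of CCR8, was higher, but 87.5% of its 48 UMIs came from 1 of 3 T cells. Without the 8 T cells with myeloid RNA, Ccl1 had 6 UMIs and a ratio of 2.54 (0.924 to 5.62). Cxcl2, a neutrophil attractant, was at 483 against 1107 CPM, and 52.6% of its UMIs came from 1 T cell; without the 8 T cells with myeloid RNA its log2 ratio was -0.92. Xcl1, which draws cross-presenting dendritic cells, had 10 UMIs in 3 T cells, and its log2 ratio was 1.02 without the NK limit.

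The lists left had median log2 ratios between -0.47 and 0.36. Dissociation stress genes were 0 higher and 3 lower of 16, with a median of -0.20. Junb, an immediate early gene, stood at 3102 against 1763 CPM and Hsp90aa1, a chaperone, at 1391 against 1326 CPM. Glycolysis genes were 3 higher and 0 lower of 14 with a median of 0.09, and Ldha, the lactate enzyme, was 2.05-fold higher (1.76 to 2.37), with a log2 ratio of 0.98 without the NK limit. MHC class I genes were 3 higher and 0 lower of 11 with a median of 0.29. Survival genes were 3 higher and 1 lower of 11 with a median of 0.36, and Bcl2l1, an inhibitor of cell death, was 5.93-fold higher (4.20 to 8.15). Growth factor genes were 3 higher and 4 lower of 11, with a median of -0.37, or 0 at the bound. Proliferation genes were 1 higher and 3 lower of 12, with a median of -0.47, or -0.49 at the bound, and 11 were lower without the 10 deepest T cells. Mki67, which marks cycling cells, had 20 UMIs in 5 T cells, with a log2 ratio of -3.21 without the 10 deepest.

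Outside the lists the highest ratios belonged to Fam169b, at 70.3 (42.4 to 117) from 20 T cells, Cpm, a membrane carboxypeptidase, at 58.9 (45.7 to 75.6) from 25, and Gpr55, a lipid receptor, at 47.3 (29.6 to 74.6) from 17. Camk4, a calcium-dependent kinase, was found in 42 T cells at 607 CPM, 17.7-fold higher (15.1 to 20.7). Rnf125, a ubiquitin ligase, was in 33 T cells and 21.3-fold higher. Cxcl3 was 28.8-fold higher from 49 UMIs that all lay in 1 T cell, and its log2 ratio was -1.10 without the 10 deepest T cells. At the other end Plpp3, Ccl8, Psd3, Cd209f and Gas6 had 0 UMIs in the T cells, which puts Plpp3 at least 31.1-fold lower and Gas6, a ligand that helps phagocytes take up dying cells, at least 12.5-fold lower.

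The last comparison set the T cells beside the nearest lymphoid barcodes of the pool, under the same limits on C1q, Dcn and keratins. These were 63 gamma-delta-type barcodes with 5 or more UMIs of Trdc and Tcrg-C1 and 121 NK-type barcodes with 5 or more of the NK genes. A further set, intended as group 2 innate lymphoid cells, had 3 or more UMIs of Il1rl1, Gata3, Il13 and Il5, no Trac, and fewer than 5 gamma-delta and 5 NK UMIs. Of its 252 barcodes 51.6% held Krt10, a keratin of the upper epidermis, and 47.2% held Ptprc, which goes against that name. It is therefore given as the 119 with Ptprc, called Il1rl1/Gata3-type, of which 10.1% held Krt10 and 59.7% Cd74, a restriction chosen after the values were seen. Myeloid RNA was present in each set. Cd74 was at 2866 CPM in T cells, 1103 in gamma-delta-type, 8368 in NK-type and 9325 in Il1rl1/Gata3-type barcodes. Lyz2 stood at 1596, 1605, 431 and 5790 CPM in the same order. What this RNA adds to the ratios between sets was not tested. Genes in the rule of a set are not compared with it.

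The costimulatory genes Cd28 and Icos, the checkpoint gene Ctla4 and the ligand genes Cd40lg and Tnfsf11 were at their highest in the T cells. Cd28 was at 579 CPM in the T cells, 98.7 in NK-type, 29.2 in gamma-delta-type and 33.2 in Il1rl1/Gata3-type barcodes, a ratio of 5.87 over the nearest, NK-type (4.52 to 7.68). Icos stood at 886 against 43.8 CPM in gamma-delta-type barcodes and 95.5 in Il1rl1/Gata3-type barcodes, a ratio of 9.28 over the latter (7.33 to 11.8). Ctla4 was at 561 CPM and at 12.1 or less in each of the 3 other sets. Cd40lg stood at 316 against 29.2 CPM in gamma-delta-type barcodes, and Tnfsf11 at 319 against 32.1 there and 32.2 in Il1rl1/Gata3-type barcodes.

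Other genes were shared with, or higher in, the neighbours. Cxcr6 was at 372 CPM in T cells and 452 in gamma-delta-type barcodes, a ratio of 0.822 (0.642 to 1.05) that does not part them beyond counting error. Itgae was lower in T cells than in gamma-delta-type barcodes, at 167 against 464 CPM, a ratio of 0.361 (0.260 to 0.494). Areg was at 604 CPM in T cells and 520 in Il1rl1/Gata3-type barcodes, a ratio of 1.16 (0.981 to 1.37). Xcl1 was at 31.0 CPM in T cells, 1205 in gamma-delta-type and 885 in NK-type barcodes. Ifng was at 130 CPM in T cells, 470 in NK-type barcodes and 0 in the other sets, and Ccl5 at 177 CPM against 5916 in NK-type barcodes. The rule holds the T cells under 5 NK UMIs, a limit that the gamma-delta-type barcodes do not have. Without this limit the log2 ratios of Xcl1 and Ccl5 over the other Ptprc-positive barcodes were 1.02 and 1.92. What the limit does to levels between the lymphoid sets was not tested.

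**Figure D4:**
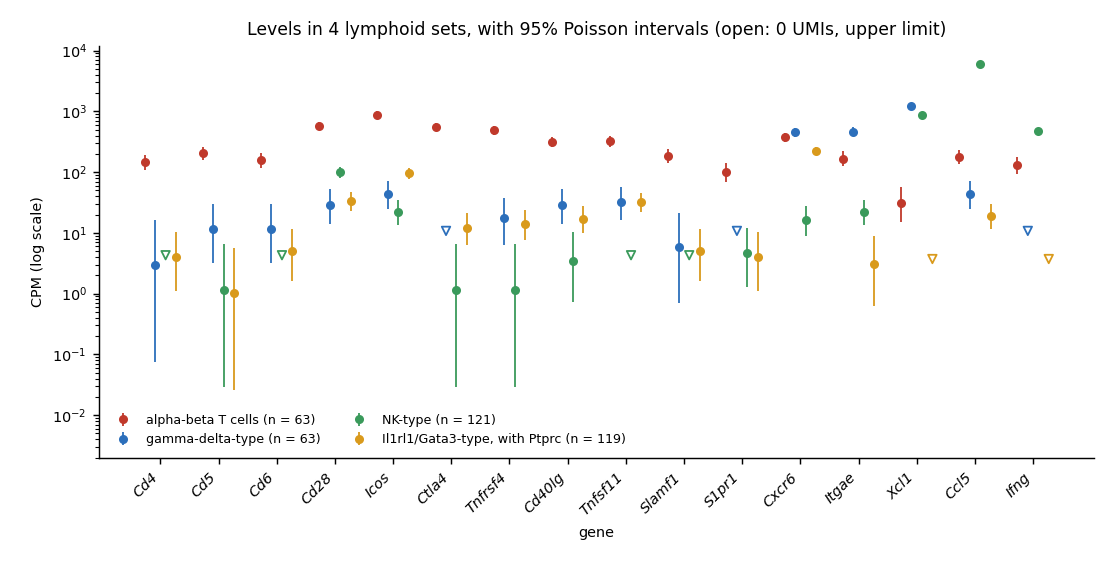
Levels of 16 genes in CPM on a log axis, with 95% Poisson intervals, in the 63 T cells, 63 gamma-delta-type, 121 NK-type and 119 Il1rl1/Gata3-type barcodes; open triangles give the upper limit where there were 0 UMIs. T cells are highest from Cd4 to S1pr1, level with gamma-delta-type barcodes for Cxcr6, and below at least 1 other set for Itgae, Xcl1, Ccl5 and Ifng.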

How the data were processed

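RNA of pooled control and neutrophil-depleted skin cells was measured in 1 droplet library. The authors deposited a matrix of raw UMI counts. Cell Ranger was used, and the genome build was mm10, per the submitters' processing notes, which give no version. How cells were called is not given in the sources used here. Samples were grouped by their labels, and the hashtag library was not used here.

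The members and gene lists were chosen with earlier results of these data known, and the lists, named genes and alternatives were written down with the design. For each set, UMIs were summed per gene and divided by the UMI total of the set to give CPM. Ratios are rates of the T cells over the other Ptprc-positive barcodes, and log2 ratios have 0.5 UMIs added to each count. Intervals are exact at 95%. Where a set had no UMI of a gene, 3 counts over the set served as the upper limit. No test was made, because 1 library gives no replicate. Shares were also computed after thinning each barcode to 1000 UMIs. Scrublet (Scanpy 1.11.5, expected doublet rate 6%) marked 305 of 8127 barcodes (3.75%) as doublets, which were kept, since the rule does not remove them. NumPy 2.4.6, SciPy 1.17.1, pandas 2.3.3 and matplotlib 3.10.9 ran under Python 3.11.15. Calculations were tested on simulated data. Gene positions are from GENCODE M21 on mm10, and promoters from a RefSeq table, in which both genes searched were found. The counting of near-identical copies such as Trbc1 and Trbc2, the H2 genes and Bcl2a1b is uncertain.

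Named genes were the coreceptors, Foxp3, Gata3, Tbx21, Zbtb16 and Ly6g, for each list the 3 highest in CPM and the 3 with the largest ratio among those with at least 10 UMIs, every cytokine of the type 1, 2 and 17 lists, and the 15 highest and 5 lowest ratios outside the lists among measured genes with at least 20 UMIs in the T cells, or for the lowest 1000 in the comparison set. A few genes under these rules are not reported here. The alternatives were at least 500 genes, at most 10% mitochondrial UMIs, called doublets left out, at least 2 Trac UMIs, no gamma-delta or NK UMIs, no limit on NK UMIs, no C1q, Dcn or keratin UMIs, at least 2 Ptprc UMIs in the comparison set, every barcode weighing the same, the 10 deepest T cells left out, a minimum of 200 UMIs, 4-fold calls and thinning. Leaving out T cells with 3 or more myeloid markers, holding the comparison set to the limits of the T cells, and restricting the innate lymphoid set to Ptprc were chosen after seeing the data.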

Additional observations from a re-analysis of the deposited data

How the results depend on the processing

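The number of T cells, the shares with Cd4, Cd8, Foxp3, Il5 or Il13 and neither coreceptor, and the numbers of list genes higher (111) and lower (46) were recomputed under the alternatives, and 79 of these values were within the limits set for an unchanged value and 6 were not. With no C1q, Dcn or keratin UMIs allowed 36 T cells remained and 2.78% held Cd8. At 4-fold 28 list genes were lower. Thinned to 1000 UMIs, 14.3% held Cd4, 3.17% held Cd8 and 82.5% neither. Named genes were recomputed under the alternatives other than 4-fold calls and thinning, where they were measured. Among them 92 kept direction and call throughout and 27 did not. The log2 ratio of Ccl5 turned to 1.92 and that of Xcl1 to 1.02 without the NK limit, Klrk1 to -2.73 and Cxcl3 to -1.28 with no C1q, Dcn or keratin UMIs, and Cxcl3 to -1.10 without the 10 deepest T cells. The alternatives on NK, C1q, Dcn and keratin UMIs change the T cells and the comparison set together. What turned these ratios was not tested. The median log2 ratio of all genes moved from -0.14 to -0.02 with no C1q, Dcn or keratin UMIs, and to -0.04 with the comparison set under the limits of the T cells. No paired analysis was possible because there is 1 RNA library, in which no barcode is given a condition, and no result comes from a test. With 63 T cells of a median 4052 UMIs, a gene missing from a T cell may have been missed at this depth.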

Other observations

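The matrix holds receptor segments, which differ from one T cell clone to another. Of 128 Trav genes 5 were detected in the T cells, with 6 UMIs in 4 T cells, and of 35 Trbv genes 3, with 5 UMIs in 5 T cells. Trbv12-2 was the only one of these found in more than 1 T cell, with 1 UMI in each of 3. Of 60 Traj genes 10 were detected, with 13 UMIs in 12 T cells. At these counts clonality could not be described.

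Pairs of genes in the same T cell add to the account of the members. Il10 was found in 5 T cells, all of which held Ctla4, while 2 of the 5 held Foxp3, and 1 T cell held 52.8% of its 36 UMIs. Of the 20 T cells with Ctla4, 12 held no Foxp3, and of the 23 with Ikzf2, 15 held none. Areg and Il1rl1 shared 9 T cells of 16 and 23. Gata3 and Ifng shared 9 T cells of 33 and 16, and 2 of the 16 with Ifng held Il5 or Il13. Type 2 cytokines may have been missed in the others at this depth. Of the 13 T cells with Il2, 7 held Cd40lg.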
